A study of Mus musculus with 2 samples.

Results

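Bone-marker spots are the places in 2 mouse tissue sections where transcripts of 7 genes of bone-forming cells were captured. A spot is a barcoded area of a slide that can hold several cells, and its RNA is counted in UMIs (unique molecular identifiers, each standing for 1 captured molecule). The spots were chosen by a rule on measured values, at least 100 UMIs in all and at least 2 UMIs summed over Bglap, Ibsp, Sp7, Dmp1, Phex, Ifitm5 and Mepe. It found 77 of 3064 spots in the micropillar library, 2.51% (1.99% to 3.13%), and 60 of 2681 spots in the flat library, 2.24% (1.71% to 2.87%), together 137 of 5745. They were set against comparison spots, 487 in the micropillar library and 551 in the flat library, which had no UMI of the 7 genes and at least 1% of their UMIs from the fibrillar collagen genes Col1a2 and Col3a1.

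The study placed implants in nude mice, a strain without a functional thymus, and took spatial transcriptomes of the regenerated tissue. The micropillar library came from a mouse group whose implant surface carried micropillars, small posts, and the flat library from a group with a flat implant. Both were paraffin sections of tissue labelled as bone, with 1 library per group, and the number of mice behind each section is not given in the sources used here. The series title links surface topography to nuclear shape, secreted factors and bone regeneration, which is the question the library comparison addresses.

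With 1 library per group no comparison had a replicate check and no p-value is given. Each interval is a 95% exact interval that covers counting error only, since spots of 1 section are not replicates. Levels are UMIs per 1000000 (CPM), summed over the spots of a class, and log2 ratios are marker spots over comparison spots unless stated. A spot with fewer bone cells and a spot with less RNA per bone cell cannot be told apart.

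Osteoblasts build bone by secreting a matrix of type I collagen that is then mineralised, and some of them become osteocytes buried in that matrix. Bglap encodes osteocalcin, a small calcium-binding protein of mature osteoblasts. Ibsp encodes bone sialoprotein, which binds mineral, and Sp7 encodes osterix, a transcription factor needed for osteoblast formation. Dmp1, Phex and Mepe act in mineralisation and phosphate balance and are marked in osteocytes, and Ifitm5 encodes a membrane protein of osteoblasts. Bone lies beside marrow, where red cells and neutrophils form, and it is resorbed by osteoclasts.

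Bglap decided almost every choice of spot, so the sequence before its start site is shown. Bglap lies on chromosome 3 from 88383501 to 88384464 on the minus strand (mm10). The 250 bases before its start site are given from RefSeq, build GRCm38.p6, at chr3:88384467-88384716, minus strand, written 5′ to 3′, with the hexamer ACCACA in capitals, a core motif of RUNX transcription factors such as Runx2.
Bglap: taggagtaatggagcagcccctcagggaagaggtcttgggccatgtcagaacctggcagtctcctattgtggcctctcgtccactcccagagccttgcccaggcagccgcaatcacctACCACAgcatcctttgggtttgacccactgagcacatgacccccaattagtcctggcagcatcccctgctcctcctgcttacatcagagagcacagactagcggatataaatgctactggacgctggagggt
The hexamer, searched as ACCACA or its reverse complement TGTGGT, begins 132 bases before the start site and occurs once in this window. Of all 32851 promoters in the table, 14.0% hold it within 250 bases, and of the 6 marker genes with an entry (all but Sp7) 3 do, namely Bglap, Dmp1 and Mepe. A match is a description of letters and not evidence of binding. Bglap has close copies beside it on the same chromosome, Bglap2 and Bglap3, whose transcripts share 98.6% and 96.4% of the bases aligned with Bglap. Only Bglap is in the files' gene list, so a Bglap UMI could have come from either copy.

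The label of bone-forming cells rested on Bglap alone in most of these spots. Bglap gave 312 of 332 marker UMIs (94.0%) in the micropillar library and 199 of 214 (93.0%) in the flat library, and was present in 76 of 77 and 59 of 60 marker spots. Dmp1 had 5 UMIs in micropillar and 13 UMIs in flat marker spots, and Ifitm5 had 5 and 1. Ibsp had 4 UMIs in micropillar and 0 in flat marker spots, Mepe 3 and 1, Phex 2 and 0, and Sp7 1 and 0. A single marker gene was detected in 60 of 77 micropillar and 50 of 60 flat marker spots, and 3 marker genes met in 1 micropillar spot and in no flat spot. With Bglap set aside, the other 6 genes alone would have chosen 3 spots in each library.

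Marker UMIs per spot were few and uneven. At the edge of the rule, 40 micropillar and 32 flat spots had exactly 2 marker UMIs, and 201 micropillar and 115 flat spots with 1 marker UMI fell just outside. The highest spots had 33, 32 and 22 marker UMIs in the micropillar library, against 10, 8 and 8 in the flat library. The richest micropillar spot held 32 Bglap UMIs among only 333 UMIs. Held out from the rule, the 2 most counted markers gave mixed results. Bglap in the 3 spots per library chosen by the other 6 genes was at 464 CPM (micropillar) and 3356 CPM (flat), against 969 and 1090 CPM in comparison spots defined without it, log2 ratios of -1.06 (-4.12 to 0.81) on 2 UMIs and 1.62 (0.16 to 2.77) on 6 UMIs. Dmp1 in the flat library was at 422 CPM in spots the other 6 chose and 45.1 CPM in comparison spots, a log2 ratio of 3.23 (1.68 to 4.86) on 10 and 7 UMIs. In the micropillar library it had 3 and 2 UMIs, too few for a direction.

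Collagen divided the marker spots into 2 kinds. Among marker spots, 50 of 77 in the micropillar library (64.9%, 53.2% to 75.5%) and 49 of 60 in the flat library (81.7%, 69.6% to 90.5%) had at least 1% of their UMIs from Col1a2 plus Col3a1, although the rule asked nothing of collagen in them. Among spots with 0 or 1 marker UMI this share was 18.2% in the micropillar library and 23.3% in the flat library. All 16 micropillar spots with at least 5 marker UMIs were collagen-bearing, as were 16 of 17 in the flat library. Seen from the other side, 8.42% of collagen-bearing micropillar spots and 7.44% of collagen-bearing flat spots were marker spots, against 1.09% and 0.544% of collagen-poor spots. The collagen-poor spots were the deeper ones, with median depths of 984.5 UMIs (micropillar) and 820 UMIs (flat), while collagen-bearing spots had 360.5 and 233.

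**Figure D1:**
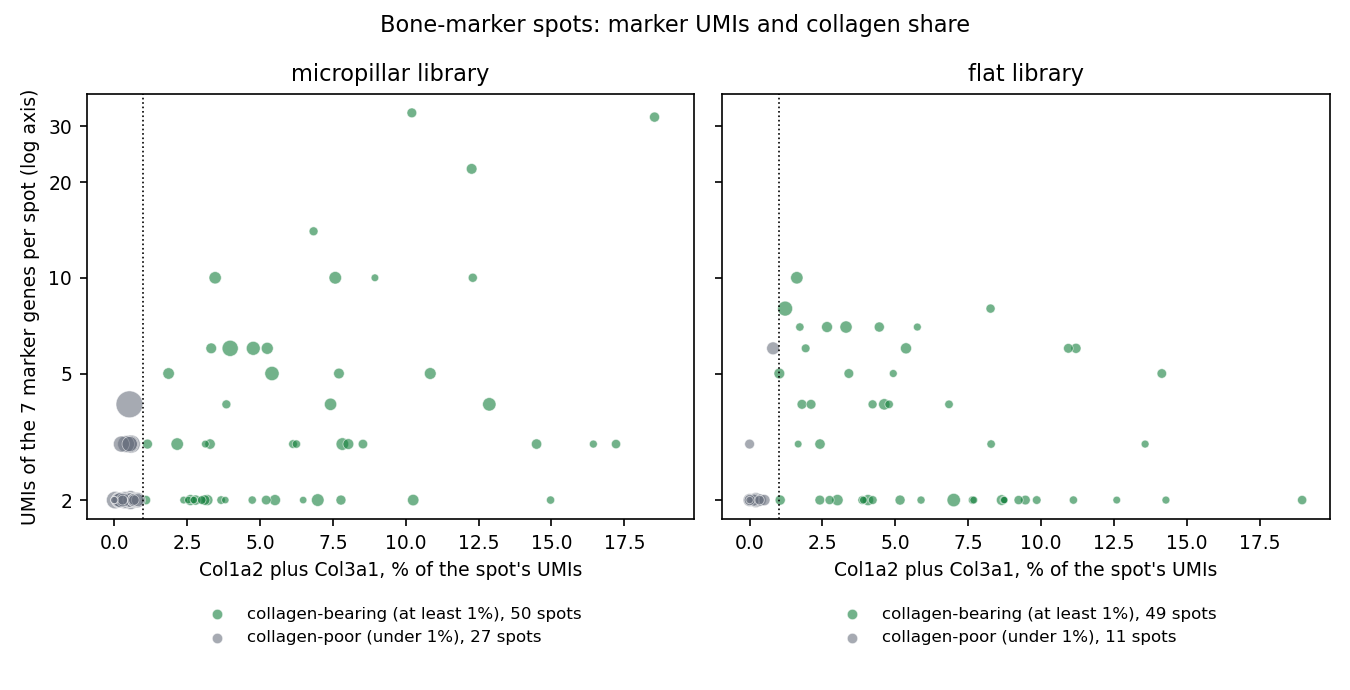
Each point is 1 bone-marker spot of the micropillar library (left) or the flat library (right), at its share of UMIs from Col1a2 plus Col3a1 (x axis, %) and its UMIs of the 7 marker genes (y axis, log scale), with point size growing with the spot's total UMIs and the dotted line at 1% collagen. Spots with 5 or more marker UMIs lie right of the line in the micropillar library, and 16 of 17 do in the flat library, while the large collagen-poor points sit at 2 to 6 marker UMIs.

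In collagen-poor spots with no marker UMI, Col1a2 plus Col3a1 were 0.101% (micropillar) and 0.0478% (flat) of UMIs. The 27 micropillar and 11 flat collagen-poor marker spots held more, 0.452% and 0.263%, but less than the 3.39% and 3.71% of comparison spots. They were deep, with a median of 2049 UMIs in the micropillar library and 748 in the flat library, and 1 micropillar spot of 19053 UMIs gave 19.7% of all UMIs of the micropillar marker spots with 4 marker UMIs. A list of 8 neuronal genes summed to 6670 CPM in the micropillar collagen-poor marker spots and 5025 CPM in the flat ones, against 7945 and 9127 CPM in collagen-poor spots with no marker UMI, and 1803 and 962 CPM in comparison spots. Neuronal UMIs were in 25 of 27 micropillar and 8 of 11 flat collagen-poor marker spots. Single flat spots carried other tissues: 183 of the class's 188 red-cell UMIs were in 1 spot and 130 of its 136 skeletal-muscle UMIs in 2 spots, and the median flat spot had 0 of both. A list of 19 bone-matrix genes had 1328 and 479 CPM in the micropillar and flat collagen-poor marker spots, against 480 and 309 CPM in collagen-poor spots with no marker UMI, and 6663 and 6758 CPM in comparison spots. So bone-matrix levels were above those of collagen-poor spots with no marker UMI in the micropillar library and far below those of comparison spots in both. The 7 marker genes, which chose the spots, summed to 853 and 3230 CPM in the collagen-poor marker spots and to 10745 and 10797 CPM in the collagen-bearing ones. With less collagen and lower bone-matrix levels than comparison spots, the collagen-poor marker spots are called only by the rule. Whether they held bone-forming cells was not tested. Results below are for the collagen-bearing marker spots, a division added after the data were seen, and the results for all marker spots follow them.

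Collagen-bearing marker spots held a larger share of type I collagen transcripts than comparison spots did. Col1a2 encodes a chain of type I collagen, the main fibre of bone, and Col3a1 the chain of type III collagen, found in skin, vessels and loose tissue. Of the UMIs of the 2 genes, Col1a2 gave 73.5% in the micropillar library (71.3% to 75.6%) and 78.2% in the flat library (75.3% to 80.9%). In comparison spots, chosen on the sum of both genes, it gave 60.3% and 56.9%. Spot by spot, Col1a2 exceeded Col3a1 in 48 of 50 micropillar and 49 of 49 flat marker spots, against 289 of 487 (59.3%) and 296 of 551 (53.7%) comparison spots. Collagen-bearing spots with 1 marker UMI lay between, at 66.4% and 69.6% Col1a2, and collagen-poor marker spots at 61.6% and 63.6%.

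**Figure D2:**
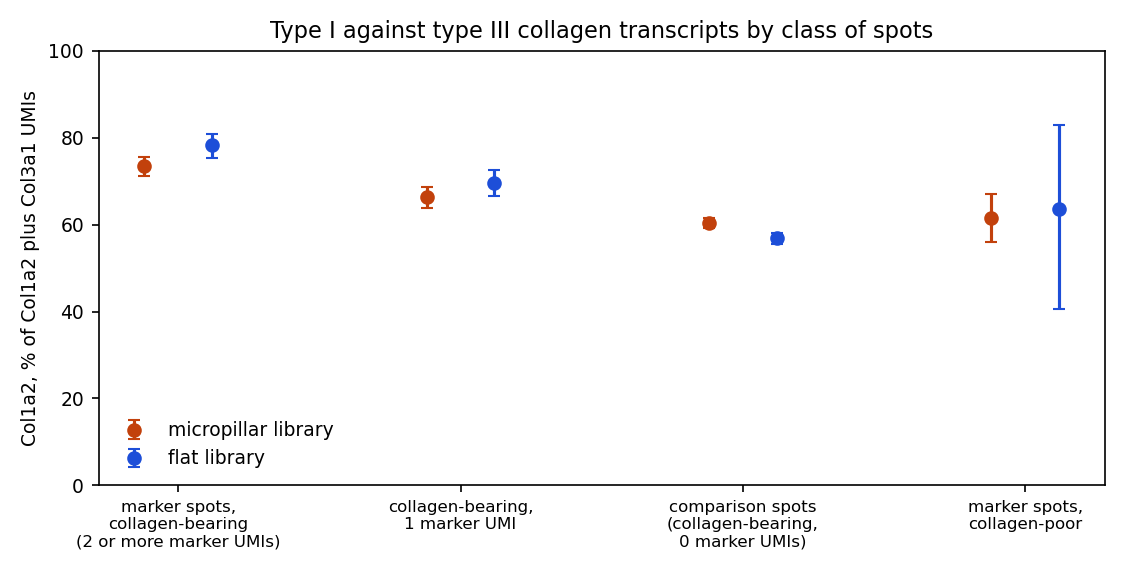
The share of Col1a2 among Col1a2 plus Col3a1 UMIs (y axis, %) in 4 classes of spots, with the micropillar library in orange left of the flat library in blue and bars for 95% exact counting intervals. Collagen-bearing marker spots stand highest, at 73.5% and 78.2%, above comparison spots at 60.3% and 56.9%.

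Across genes with at least 20 UMIs over the classes compared in each library, 1838 in all and without the 9 genes of the rule, collagen-bearing marker spots had 31 genes at least 2-fold higher than comparison spots in both libraries (1.69%) and 95 at least 2-fold lower in both (5.17%). Such genes are referred to as called, and these 2 shares are the background for each count of called list members in collagen-bearing marker spots. The median log2 ratio over all 1838 genes was -0.11 in the micropillar library and -0.12 in the flat library, so the ratios were centred close to 0. Few UMIs stood behind each ratio: when, for each gene, the spot holding most of its UMIs was left out, 14 of the 31 remained at least 2-fold higher in both libraries. With a counting interval that excluded 0 in both libraries also asked for, 15 genes were higher and 26 lower. The 14 included Col11a2, Tnn, Tnc, Sparc, Runx2, Acp5, Mmp9, Elane, Prtn3, S100a9 and Hbb-bs.

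**Figure D3:**
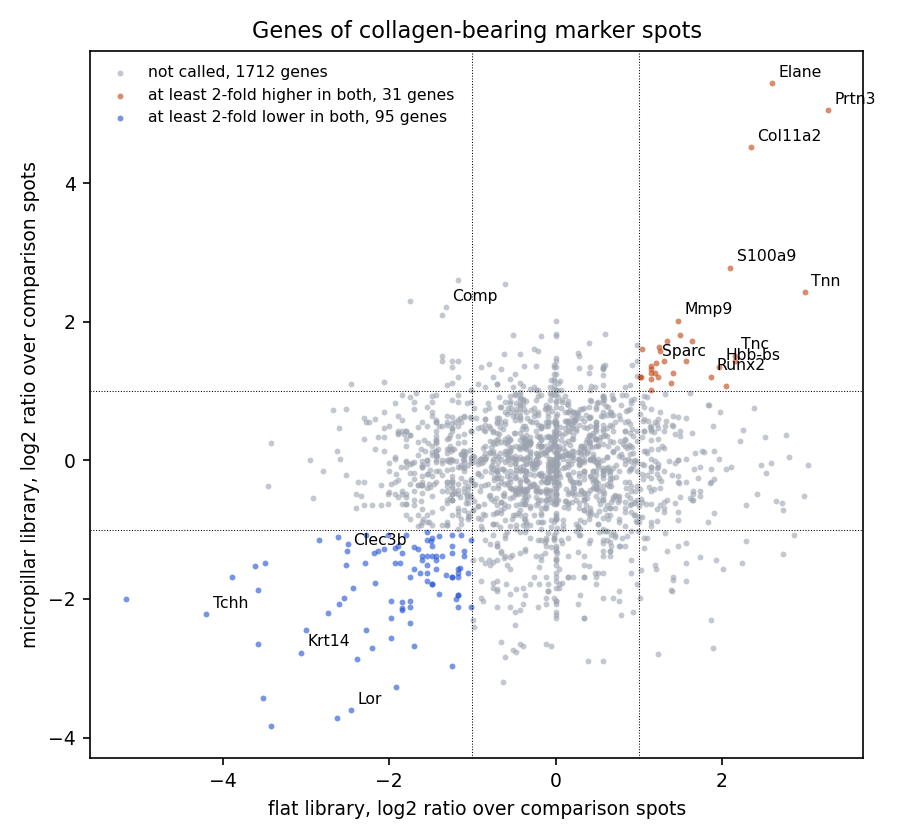
Each point is 1 of 1838 genes, at its log2 ratio of collagen-bearing marker spots over comparison spots in the flat library (x axis) and the micropillar library (y axis), with dotted lines at 2-fold. The 31 genes higher in both lie top right, led by Elane, Prtn3, Col11a2 and Tnn, and the 95 lower in both lie bottom left, with hair and skin genes such as Krt14, Lor and Tchh.

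Matrix genes of bone were led by Col11a2. This gene, which encodes a chain of type XI collagen that joins fibrils of other collagens, had 1467 CPM in micropillar and 924 CPM in flat collagen-bearing marker spots, against 63.7 and 182 CPM in comparison spots, log2 ratios of 4.53 (3.58 to 5.56) and 2.34 (1.36 to 3.28). It was spread over spots: 20 of 50 micropillar and 13 of 49 flat marker spots had a UMI of it, against 13 of 487 (2.67%) and 20 of 551 (3.63%) comparison spots, at median depths of 388.5 and 260 UMIs against 351 and 233. The cartilage gene Col2a1 was in 10 of 50 micropillar marker spots, against 7 of 487 comparison spots, a log2 ratio of 3.86. In the flat library it was in 2 of 49 marker and 5 of 551 comparison spots. The part of cartilage in the Col11a2 ratios was not tested. Sparc, which encodes osteonectin, a collagen- and mineral-binding protein, had 2656 CPM in micropillar and 2252 CPM in flat marker spots, against 999 and 975 CPM in comparison spots, with log2 ratios of 1.41 (0.99 to 1.82) and 1.21 (0.66 to 1.72). Tenascin C (Tnc), an adhesion-modulating glycoprotein, had log2 ratios of 1.51 (0.43 to 2.50) in the micropillar library and 2.15 (0.89 to 3.31) in the flat library. These 3 were the called genes among the 10 bone-matrix genes that reached the minimum, and none was called lower.

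Other matrix genes were closer to the comparison spots. Col5a1, a type V collagen chain, had log2 ratios of 0.95 (0.33 to 1.52) and 0.84 (0.07 to 1.55), under the 2-fold line in both libraries. Biglycan (Bgn) went opposite ways, 0.47 (0.04 to 0.87) in the micropillar library and -0.79 (-1.59 to -0.08) in the flat library. Periostin (Postn), decorin (Dcn) and lumican (Lum) had intervals that held 0 in both. Over the list, the median log2 ratio was 0.64 in the micropillar library and 0.42 in the flat library, and the summed level was 12251 and 8949 CPM in marker spots, against 6663 and 6758 CPM in comparison spots. Col1a2 plus Col3a1 also took more of the UMIs, 6.47% and 5.09% in marker spots, against 3.39% and 3.71% in comparison spots. The part of this higher collagen share in the bone-matrix ratios was not tested.

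Genes of mineralisation stood higher in both libraries. Tenascin N (Tnn), a matrix protein of the periosteum and osteoblasts also called tenascin W, had 634 CPM in micropillar and 1039 CPM in flat marker spots, against 118 and 130 CPM in comparison spots, a log2 ratio of 2.43 (1.42 to 3.40) in the micropillar library and an interval of 2.00 to 3.99 in the flat library. In the micropillar library 9 of its 16 UMIs came from 1 spot, and without that spot the ratio was 1.31, while in the flat library 14 of 49 spots held its 18 UMIs. Osteopontin (Spp1), a secreted mineral-binding protein, was called with ratios of 1.27 (0.15 to 2.27) and 1.41 (-0.19 to 2.78), and 0.86 in the flat library without its highest spot. Alpl, the alkaline phosphatase that frees phosphate for mineral, was under the minimum in the flat library, with 11 and 4 UMIs in marker spots against 13 and 7 in comparison spots, or 436 and 231 CPM against 63.7 and 45.5 CPM. Of the 4 mineralisation genes that reached the minimum 2 were called higher and none lower, with list medians of 1.14 and 0.78. The summed list had 3410 and 3118 CPM in marker spots, against 1328 and 1534 CPM in comparison spots, log2 ratios of 1.36 (0.99 to 1.72) and 1.02 (0.57 to 1.46).

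Collagen-processing genes moved unevenly. Serpinh1, the collagen chaperone HSP47, was called higher, at 1150 CPM in micropillar and 808 CPM in flat marker spots, against 500 and 396 CPM in comparison spots. Its log2 ratios were 1.20 (0.55 to 1.81) and 1.03 (0.07 to 1.88), and 0.71 in the flat library without its highest spot. Crtap, part of the collagen prolyl 3-hydroxylation complex, was called on 5 UMIs in each library, and its micropillar ratio of 1.17 became -0.08 without 1 spot. Pcolce2, an enhancer of procollagen cleavage, was called lower, at -1.03 (-4.13 to 0.94) and -1.55 (-6.91 to 1.06) on 2 UMIs and 1 UMI. The other 8 of 11 measured at the minimum were not called, and the medians were -0.26 and -0.31. Of 18 secretory-pathway genes none was called, with medians of 0.30 and 0.07. Over all 1838 genes 1.69% were called higher and 5.17% lower, so few calls would be met in a list of this size.

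Runx2, the transcription factor that starts osteoblast formation, was the 1 called gene of 3 osteoblast transcription factors at the minimum. It had 6 UMIs in micropillar and 9 UMIs in flat marker spots, 238 and 520 CPM, against 103 and 143 CPM in comparison spots, with ratios of 1.21 (-0.39 to 2.57) and 1.86 (0.56 to 3.04). The summed list of 14 such factors did not stand apart, at 0.02 (-0.69 to 0.67) and 0.21 (-0.58 to 0.93). Of 3 osteocyte-list genes at the minimum none was called, with medians of 0.14 and -0.55, and the summed list of 12 had ratios of 0.45 (-0.17 to 1.02) and -0.46 (-1.45 to 0.38). Sost, which encodes sclerostin, the osteocyte's inhibitor of bone formation, was under it, with 6 UMIs in micropillar and 4 in flat marker spots, against 12 and 5 in comparison spots, log2 ratios of 2.02 (0.32 to 3.54) and 2.83 (0.50 to 5.05). In flat marker spots 8 of the 12 osteocyte genes were at 0, among them Fgf23, Irx5 and Tnfsf11, and in micropillar marker spots 4 were, Fgf23, Irx5, Tnfrsf11b and Kcnk2.

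Osteoclast genes were present beside the osteoblast ones. Acp5, the tartrate-resistant acid phosphatase, had 793 CPM in micropillar and 462 CPM in flat marker spots, against 255 and 195 CPM in comparison spots, with ratios of 1.64 (0.82 to 2.41) and 1.24 (-0.09 to 2.40). Mmp9, a matrix protease of osteoclasts and neutrophils, had ratios of 2.02 (1.08 to 2.90) and 1.47 (0.28 to 2.53). Cathepsin K (Ctsk), the main collagen-digesting protease of osteoclasts, was not called, at 0.32 (-0.64 to 1.18) and -1.29 (-3.60 to 0.32). Of the 5 genes at the minimum 2 were called higher, and Dcstamp, Ocstamp, Oscar and Calcr were at 0 in marker spots of both libraries. The list medians were 1.38 in the micropillar library and -0.02 in the flat library. The summed list had 3053 and 2079 CPM in marker spots, against 1514 and 1579 CPM in comparison spots, log2 ratios of 1.01 and 0.40.

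Signalling genes of the skeleton were mostly too rare to compare: 4 of 34 in the ligand list and 8 of 25 in the receptor list reached the minimum, and none of these 12 was called. Sfrp2, a secreted modulator of Wnt signals, had log2 ratios of -0.07 (-0.86 to 0.64) and -0.77 (-2.01 to 0.26). Igf1, insulin-like growth factor 1, had 7 UMIs in micropillar and 0 in flat marker spots, against 48 and 40 in comparison spots. The receptors Tgfbr2, for transforming growth factor beta, and Fgfr1, for fibroblast growth factors, had ratios of 0.43 (-0.46 to 1.23) and 0.86 (-0.36 to 1.93) in the micropillar library, and -1.02 (-2.93 to 0.40) and 0.43 (-1.29 to 1.79) in the flat library. With so few genes at the minimum, the count says little about signalling in these spots.

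**Figure D4:**
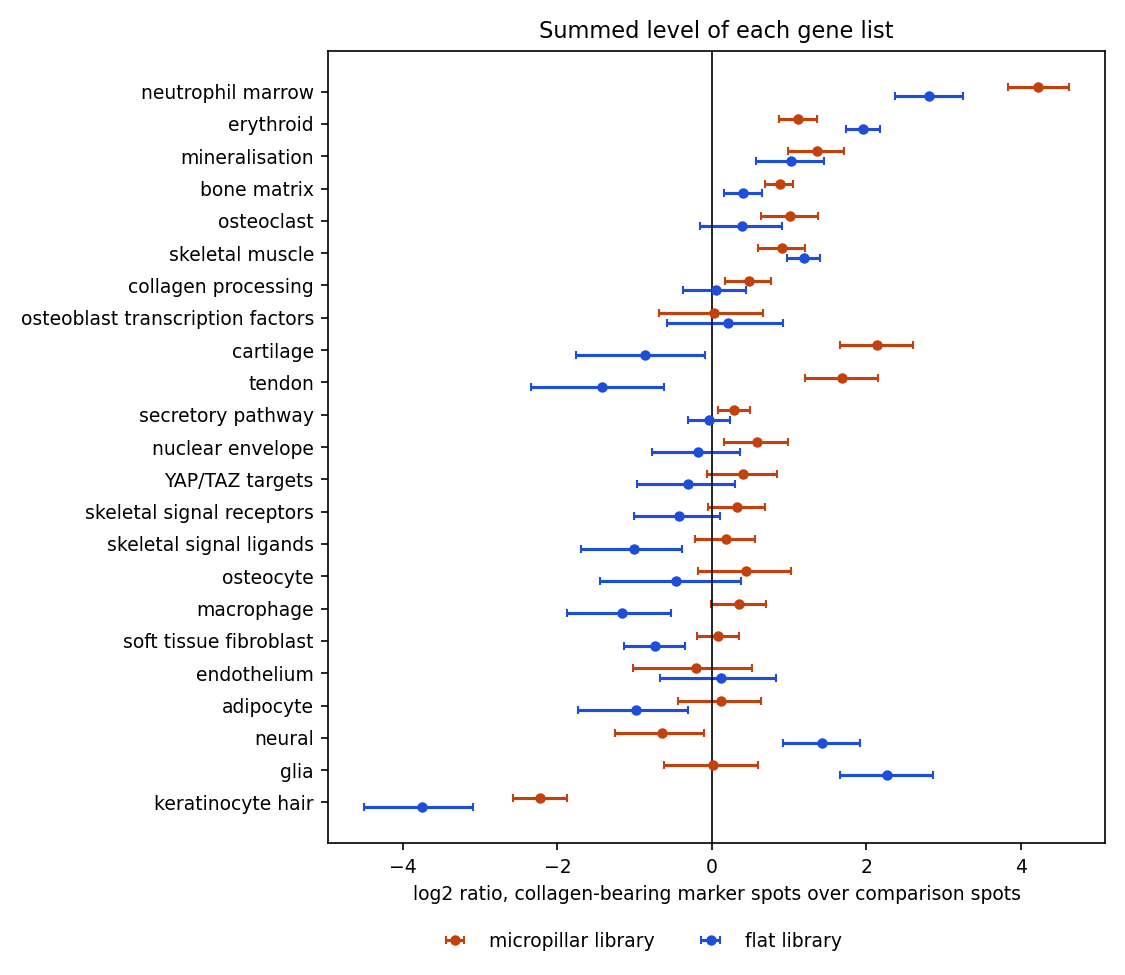
Log2 ratio of the summed level of each gene list in collagen-bearing marker spots over comparison spots (x axis) for the micropillar library in orange and the flat library in blue, with 95% exact counting intervals. Neutrophil, red-cell, mineralisation, bone-matrix and muscle genes lie right of 0 in both libraries, skin and hair genes left of 0 in both, and cartilage, tendon and neural genes on opposite sides. The cartilage and tendon lists share Comp.

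Marrow genes were the highest outside the bone lists. Elane and Prtn3, which encode neutrophil elastase and proteinase 3, had 2141 and 1626 CPM in micropillar marker spots and 866 and 693 CPM in flat ones. In comparison spots they had 49.0 CPM each in the micropillar library and 143 and 71.5 CPM in the flat library. All 3 neutrophil genes at the minimum, with S100a9, were called higher, and 13 of 15 listed genes were detected in micropillar and 12 of 15 in flat marker spots. The summed list had 7176 and 4677 CPM in marker spots, against 382 and 663 CPM in comparison spots. These UMIs were gathered in few spots: the 5 highest held 86.7% of them in the micropillar library and 76.5% in the flat library, and 1 micropillar spot held 106 of 181. Without the highest spot the log2 ratio was 3.11 against 4.23 with it in the micropillar library, and 2.46 against 2.82 in the flat library. Of 3 red-cell genes at the minimum, the adult haemoglobin gene Hbb-bs was called, with 4520 CPM in micropillar and 7506 CPM in flat marker spots, against 1769 and 1924 CPM in comparison spots, and was in 33 of 50 and 23 of 49 marker spots. The other two were not called: Hba-a2 had log2 ratios of 0.80 (0.32 to 1.25) in the micropillar library and 1.84 in the flat library, and Hbb-bt -0.18 (-1.87 to 1.14) and 2.53 (1.40 to 3.61).

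Genes of skin and hair follicle were lower. Of 9 genes of the keratinocyte and hair list at the minimum 8 were called lower and none higher, with medians of -2.22 and -3.06. Krt14, a keratin of basal epidermis, had 595 and 462 CPM in marker spots, against 4066 and 3854 CPM in comparison spots. Loricrin (Lor), of the cornified layer, had ratios of -3.61 (-6.66 to -1.73) and -2.46 (-4.09 to -1.22). The 10 lowest by the smaller ratio were Calm4, Hr, Krt14, Fxyd3, Krt71, Lor, Elovl4, Apoc1, Krtdap and Tchh. The list summed to 2815 and 1039 CPM in marker spots, against 13100 and 13985 CPM in comparison spots, and its part in the other ratios was not tested.

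Genes of muscle, cartilage, tendon, brain and its coverings had different levels in the marker spots of the libraries. Skeletal-muscle genes summed to 4401 and 13164 CPM in micropillar and flat marker spots, against 2352 and 5751 CPM in comparison spots, and 95.2% of the flat UMIs came from 5 spots. Without the highest spot the flat log2 ratio was 0.27, against 1.19 with it. Cartilage genes were higher in micropillar marker spots, 2379 CPM against 539 CPM, and lower in flat ones, 808 CPM against 1475 CPM. Of 17 cartilage genes 13 were at 0 in micropillar marker spots, among them Acan, Col10a1 and Matn1. Of the 60 UMIs of the cartilage list there, Comp gave 39 and Col2a1 18, and Comp is on the tendon list too. Neuronal genes were lower in micropillar marker spots, 1150 CPM against 1803 CPM, and higher in flat ones, 2598 CPM against 962 CPM, with 21 of the 45 flat UMIs from 1 spot. That spot had 1.22% collagen, just above the 1% line, and without it the flat log2 ratio was 0.69, against 1.43 with it. Glial genes had log2 ratios of 0.017 (-0.62 to 0.60) in the micropillar library and 2.27 (1.66 to 2.86) in the flat library, or 1.58 in flat without the highest spot. Genes of the meninges, a list that also holds Spp1, had -0.14 (-1.14 to 0.72) and 2.04 (1.36 to 2.68), and tendon genes 1.69 (1.20 to 2.16) and -1.42 (-2.35 to -0.62). In the flat marker spots the glial and meningeal ratios were above that of mineralisation genes. The part of these cells in the bone-gene ratios was not tested.

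Within the collagen-bearing spots, bone lists did not climb steadily with the number of marker UMIs. Mineralisation genes had 2067 and 1738 CPM in spots with 1 marker UMI, 4011 and 3216 CPM with 2 to 4, and 2748 and 2995 CPM with 5 or more (micropillar first, then flat, in each pair). Bone-matrix genes had 8799 and 9868 CPM with 1 marker UMI, 12866 and 10788 CPM with 2 to 4, and 11575 and 6641 CPM with 5 or more. Comparison spots had 6663 and 6758 CPM, so flat spots with 5 or more marker UMIs were not above them. Both lists were highest in the spots with 2 to 4 marker UMIs in both libraries. In flat spots with 5 or more marker UMIs muscle genes took 26693 CPM, and in micropillar ones neutrophil genes took 11824 CPM.

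In collagen-bearing marker spots, lists named for the series title showed no called gene. With so few genes at the minimum this says little, as 1.69% of all 1838 genes were called higher and 5.17% lower. Of the nuclear-envelope genes, 4 reached the minimum and none was called. Lmna, the nuclear lamin A gene, had ratios of 0.46 (-0.21 to 1.08) and -0.40 (-1.44 to 0.49). The summed list had 0.59 (0.16 to 0.99) in the micropillar library and -0.18 (-0.77 to 0.36) in the flat library. YAP/TAZ targets, genes switched on when cells sense a stiff surface, had 0.41 (-0.06 to 0.85) and -0.30 (-0.97 to 0.30) summed, with none of 4 called. Connective tissue growth factor (Ccn2), the best known of them, was under the minimum, with 6 UMIs in micropillar and 3 UMIs in flat marker spots, against 7 and 12 in comparison spots. Over all marker spots, collagen-poor ones included, 1 of 5 YAP/TAZ targets was called lower and none of 4 nuclear-envelope genes was called. Of all 2024 genes there, 4.30% were called higher and 11.0% lower.

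Over all marker spots, collagen-poor ones included, the profile was mixed with neural genes. Of 2024 genes, 87 were at least 2-fold higher in both libraries (4.30%) and 222 at least 2-fold lower (11.0%), so that 28.2% of called genes were higher. With TMM scaling, which moved the log2 ratios by -0.17 in the micropillar library and -0.40 in the flat library, 56 were higher and 353 lower, or 13.7% higher. The median over all 2024 genes was -0.32 and -0.22 without it. The highest by the smaller ratio included Camp, Prtn3 and Elane, all of neutrophils, and Col11a2. The synaptic gene Snap25 and the neuronal genes Ppp1r1b, Ddn, Kif5a, Mapk10 and Ndrg4 were also among them. Of the genes called higher, 7 were called higher in the collagen-bearing marker spots too, and of those called lower 49 were. Bone-matrix genes were lower over all marker spots of the micropillar library, with 4176 CPM against 6663 CPM in comparison spots. In the flat library the levels were close, 6192 CPM against 6758 CPM, on 159 and 1040 UMIs. Of 10 at the minimum 1 was called higher and 2 lower, with medians of -0.84 and -0.15. Mineralisation genes summed to 1592 and 2492 CPM, against 1328 and 1534 CPM. Biglycan, Ctsk, Cd44, Igf1, Tcirg1, Fzd2 and Tgfbr2 were called lower over all marker spots, and in the collagen-bearing ones their ratios were above 0 in the micropillar library and below 0 in the flat library.

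Between the libraries, the summed marker genes did not differ in collagen-bearing marker spots beyond counting error, 10745 CPM in the micropillar library and 10797 CPM in the flat library, a log2 ratio of micropillar over flat of -0.01 (-0.28 to 0.27). The rule fixes a minimum in both, so this is a description. The spots were of different depth, with medians of 388.5 and 260 UMIs. Thinned to 250 UMIs per spot, 22 of 2733 micropillar spots (0.805%, 0.505% to 1.22%) and 20 of 2028 flat spots (0.986%, 0.603% to 1.52%) met the rule, and 20 of 22 and 15 of 20 of these were collagen-bearing.

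Bone-matrix genes summed higher in the micropillar library in collagen-bearing marker spots, but lower over all marker spots, as given below. Micropillar over flat, their log2 ratio was 0.45 (0.17 to 0.74), against -0.02 (-0.14 to 0.10) in comparison spots. Mineralisation genes had 0.13 (-0.38 to 0.65), osteoblast transcription factors -0.25 (-1.22 to 0.73), collagen processing 0.39 (-0.08 to 0.88) and osteoclast genes 0.55 (-0.03 to 1.17). Skeletal signalling ligands had 1.04 (0.33 to 1.81), on 66 UMIs in micropillar and 22 UMIs in flat marker spots, and receptors 0.65 (0.03 to 1.31). Of the ligand UMIs 13 and 3 were of Ctsk, a protease that is also on that list. In comparison spots the ligand and receptor lists had -0.14 (-0.34 to 0.05) and -0.11 (-0.31 to 0.09). Nuclear-envelope genes had 0.43 (-0.22 to 1.12) and YAP/TAZ targets 0.46 (-0.28 to 1.23), both intervals holding 0. Lists of other tissues were also higher in the same micropillar marker spots, soft-tissue fibroblast genes by 0.54 (0.08 to 1.01), neutrophil genes by 0.62 (0.23 to 1.01), macrophage genes by 1.37 (0.66 to 2.14), tendon genes by 1.49 (0.59 to 2.48) and cartilage genes by 1.56 (0.70 to 2.51). In comparison spots these 5 had -0.27, -0.79, -0.15, -1.62 and -1.45. The tendon and cartilage lists share Comp, so their ratios are not separate. Comp gave 39 of 53 tendon and 39 of 60 cartilage UMIs in micropillar marker spots, and 8 of 13 and 8 of 14 in flat ones. The part of these 5 lists in the bone-matrix ratio was not tested. Glial and meningeal genes were lower in the micropillar marker spots, -1.04 (-1.80 to -0.29) and -1.86 (-2.96 to -0.86).

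**Figure D5:**
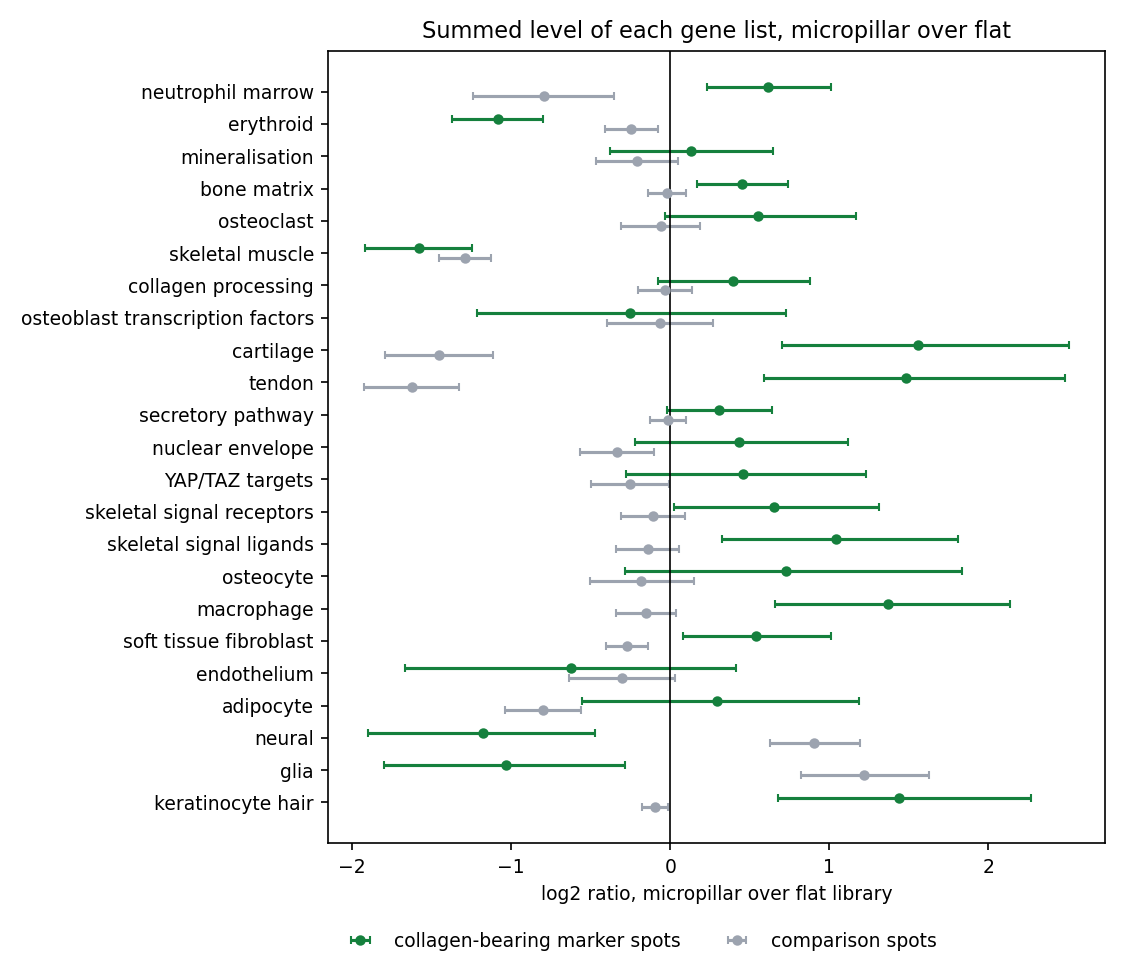
Log2 ratio of the micropillar over the flat library for the summed level of each gene list (x axis), in collagen-bearing marker spots (green) and comparison spots (grey), with 95% exact counting intervals. Bone-matrix genes lie above 0 in marker spots and near 0 in comparison spots, and cartilage, tendon and neural genes lie on opposite sides of 0 in the 2 classes. The cartilage and tendon lists share Comp.

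Single genes at least 2-fold higher in micropillar marker spots came from several tissues. Of 249 genes with at least 20 UMIs over both libraries, 30 were at least 2-fold higher in micropillar collagen-bearing marker spots (12.0%) and 24 at least 2-fold lower (9.64%), against 9.05% and 4.61% of 4299 genes in comparison spots. The classes differ in size, with 25222 and 17320 UMIs in marker spots and 204117 and 153884 UMIs in comparison spots. With an interval without 0 also asked for, 18 were higher and 17 lower in marker spots, and 251 and 142 in comparison spots. Col2a1, the type II collagen of cartilage, had 18 UMIs in micropillar and 2 in flat marker spots, a log2 ratio of 2.63 (0.57 to 5.78). Comp, a matrix protein of cartilage and tendon, had 39 and 8, or 1.74 (0.62 to 3.05), while in comparison spots it was -1.79 (-2.21 to -1.38). The lysosomal gene Cd68, marked in macrophages and osteoclasts, had 22 and 3, or 2.33 (0.60 to 4.72). Of the gland gene Mucl2, 33 UMIs were in micropillar and 0 in flat marker spots, at least 2.92 on the log2 scale with the flat library set to 3 counts, and flat comparison spots had 0 as well.

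Lower in the micropillar marker spots were muscle, red-cell and neuronal genes. Ckm, muscle creatine kinase, had 10 and 54 UMIs, a ratio of -2.98 (-4.11 to -1.99), with 28 of the flat UMIs in 1 spot. Tcap, a sarcomere protein, had -2.81 (-4.55 to -1.39), and the haemoglobin gene Hba-a2 had 49 and 103 UMIs, or -1.61 (-2.14 to -1.11). The neuronal genes Aplp1, Camk2n1 and Sncb had -2.54 (-4.12 to -1.21), -2.44 (-3.88 to -1.19) and -1.63 (-3.05 to -0.34), and in comparison spots all 3 were above 0. The summed muscle list had -1.58 (-1.92 to -1.25) in marker spots and -1.29 (-1.45 to -1.13) in comparison spots. The part of these other tissues in the library ratios of bone genes was not tested, and the section, its tissue makeup and the implant cannot be told apart.

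Over all marker spots the libraries differed more, at median depths of 536 UMIs in the micropillar library and 318.5 in the flat library. The summed marker genes, which chose the spots, had a log2 ratio of micropillar over flat of -1.28 (-1.53 to -1.03). Bone-matrix genes had -0.57 (-0.84 to -0.29) and mineralisation genes -0.65 (-1.08 to -0.20), against 0.45 and 0.13 in the collagen-bearing marker spots. Nuclear-envelope genes had -0.53 (-1.03 to -0.01), with 2 of 4 at the minimum at least 2-fold lower. YAP/TAZ targets had -0.16 (-0.74 to 0.44). Of 1377 genes 286 were at least 2-fold higher in the micropillar marker spots (20.8%) and 142 at least 2-fold lower (10.3%). So 66.8% of called genes were higher, and with TMM scaling, which moved the log2 ratios by 0.34, 424 were higher and 63 lower, or 87.1% higher. The neuropeptide genes Avp (vasopressin) and Oxt (oxytocin) had 373 and 135 UMIs in micropillar marker spots, against 3 and 1 in flat ones, and 369 and 131 of the micropillar UMIs were in collagen-poor spots. The bone results above do not rest on these genes, which were near 0 in the collagen-bearing marker spots, with 4 UMIs each in the micropillar library and 0 in the flat library.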

How the data were processed

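Each deposited matrix gives the authors' UMI counts, whole numbers without normalisation, for genes by spots. The sources on the software differ: Space Ranger 2.0.1 per the file headers, Cell Ranger 7.2.0 with mm10 per the submitters' processing notes. The probe set is unknown here, and a directional mRNA kit is what the protocol in the labels names. The files list 19465 genes, and of 11 symbols on 2 rows the row with more counts was kept. At least 100 UMIs were found in 3064 of 3303 micropillar and 2681 of 3161 flat spots, with 3173632 and 2263345 UMIs. The libraries share 2135 spot barcodes, which name slide positions, and 0 of these are marker spots in both. Spot positions and images were not used, and doublets were not called because spots are no single cells.

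Counts were summed over the spots of a class and scaled to CPM of the class total. Ratios carry exact conditional binomial intervals and shares exact Clopper-Pearson intervals, at 95%, for counting error only. A class with 0 UMIs was set to 3 counts. Genes needed 20 UMIs over the classes compared, in each library where libraries were kept apart, and a call was at least 2-fold, the same way in both. The 28 gene lists held 411 entries, of which 10 were not analysed here. Members and lists were chosen with earlier results of these data known. Genes named were the 16 highest and 10 lowest by the smaller ratio of both libraries, called members and the most abundant member of bone lists, the most abundant and highest members of other lists, and, between libraries, the 8 highest and 8 lowest whose interval lacks 0. Not all are named, and some called or flagged genes are not reported here. Alpl, Sost, Ccn2, Col5a1, Postn, Sfrp2, Fgfr1, Hbb-bt and the flagged genes were added after their values were seen. The scripts were tested on simulated data. Python 3.11.15 with numpy 2.4.6, scipy 1.17.1, pandas 2.3.3 and matplotlib 3.10.9 was used, with edgeR 4.0.16 for TMM factors. Alternatives covered marker and depth minimums, thinning, the collagen share, scaling, spot weight and gene minimums.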

Additional observations from a re-analysis of the deposited data

Results flagged for a closer look

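With 1 library per group, none of these differences between libraries was tested. Each had ratios of at least 2-fold in opposite directions in the libraries, with intervals on opposite sides of 0. Over all marker spots against comparison spots, Avp, the vasopressin gene, had a log2 ratio of 4.76 in the micropillar library and -1.98 in the flat library, and 369 of its 373 UMIs in micropillar marker spots came from collagen-poor ones. The muscle gene Ckm had -1.30 and 2.62. In collagen-bearing marker spots, Comp had 2.21 in the micropillar library and -1.32 in the flat library. The neuronal genes Aplp1 (-1.35 and 2.74), Mapk8ip3 (-2.71 and 1.89) and Pcsk1n (-1.16 and 2.29), with Prdx5 (-1.27 and 1.06), went the other way.

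Spots under 100 UMIs, which the report's values leave out and the alternative with no minimum of UMIs takes in, also held marker UMIs. The 239 such spots of the micropillar library had 23 marker UMIs, or 1499 CPM, and the 480 of the flat library had 55, or 2397 CPM, against 196 and 131 CPM that 3 counts would give there. Of these spots 6 and 11 had at least 2 marker UMIs.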

How the results depend on the processing

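No paired analysis was possible because each group has 1 library and no test was made. Of 2341 values under alternatives, 1872 stayed within their counting interval and 433 moved. A further 36, among results at least 2-fold in the main setting, changed sign, and the cause was not tested. The 2341 leave out the shares of marker spots and the counts of called genes. With 1 marker UMI all 6 of these moved, the micropillar share from 2.51% to 9.07%. With 250 UMIs per spot all 6 stayed within their interval or within 1.5 times the count. Depth limits every value: most genes had a handful of UMIs in marker spots, and some calls rested on 1 spot. The log2 ratio of Crtap in micropillar collagen-bearing marker spots was 1.17 with its highest spot and -0.08 without it. The collagen division and the settings that leave out the deepest spot or each gene's highest spot were chosen after seeing the data, as were calls by interval in collagen-bearing marker spots.

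The share of marker spots, 2.51% (micropillar) and 2.24% (flat), was 9.07% and 6.53% with 1 marker UMI, 1.21% and 1.04% with 3, and 0.805% and 0.986% after thinning to 250 UMIs, and 1.63% in the micropillar library for collagen-bearing marker spots alone. The 87 genes higher in both libraries became 536 with 1 marker UMI, 15 after thinning, 56 with TMM, 47 with equal weight of spots, 22 at 40 UMIs per gene, 225 at 10 and 31 in collagen-bearing spots. The 222 lower became 515 with 1 marker UMI, 98 with 3, 29 after thinning, 353 with TMM, 120 at 40 UMIs per gene, 101 with intervals without 0 and 95 in collagen-bearing spots. Between libraries, the 286 higher in micropillar marker spots became 520 with 1 marker UMI, 99 with 3, 3 after thinning, 76 at 40 UMIs per gene, 670 at 10, 86 with intervals without 0 and 30 in collagen-bearing spots. The 142 lower became 226, 70 and 4 under the first 3 of these, 63 with TMM, 46 at 40 UMIs per gene, 393 at 10 and 24 in collagen-bearing spots.

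Signs were followed only for results at least 2-fold in the main setting. Smaller ratios that turned, such as those of the summed bone-matrix genes, are not listed. The listed signs that turned, as log2 ratios, were nearly all of the micropillar library. In collagen-bearing marker spots alone they were fibroblast genes 0.083, macrophage genes 0.36, neuronal genes -0.65, Bgn 0.47, Camk2a -0.51, Cd44 0.29, Ctsk 0.32, Ddn -0.68, Fzd2 0.078, Igf1 0.24, Kif5a -0.40, Ppp1r1b -0.31, Snap25 -0.071, Tcirg1 0.13 and Tgfbr2 0.43. After thinning they were fibroblast genes 0.35, macrophage genes 0.013, neuronal genes -0.89, glial genes -0.50, Bgn 1.20, Dynll2 -0.73, Fzd2 0.27 (flat 0.40), Pcolce2 0.18 (flat 0.55), Ppp1r1b -0.35, Sfrp2 0.79, Snap25 -0.39, Ssr4 1.01 and Thbs1 0.27. With 2% collagen in comparison spots Apoc1 had 0.31 and, in the flat library, Krt71 0.37. With 1 marker UMI, S100a9 had -0.12 in the flat library. Micropillar over flat, Acta1 had 0.40 and Tcap 0.86 after thinning, and Prnp -0.071 with 1 marker UMI.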
